A study of Mus musculus with 12 samples.

Results

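The class III POU transcription factor genes Pou3f1, Pou3f2, Pou3f3 and Pou3f4, and Pantr1, a long noncoding RNA gene that neighbours Pou3f3 on chromosome 1, were followed through early neural tube development in the mouse. Members were all probe sets (groups of short probes for 1 transcript region) that the platform annotation gives to 1 of these 5 genes, which made 10 of 34945 single-gene probe sets and 5 of 18193 genes. RNA came from neural tubes micro-dissected from ICR (CD-1) embryos, an outbred stock, at gestation day 8.5 (GD8.5), 9.0 (GD9.0) and 9.5 (GD9.5), with 4 labelled biological replicates per stage, and the labels name no treatment or genetic change. The labels do not say whether a replicate was an embryo, a litter or a pool, so the spread between replicates may include technical spread. Log2 values were given for 10 arrays, with n = 2 at GD8.5 and n = 4 at GD9.0 and at GD9.5, and the number of arrays limits the precision. GD8.5 replicates 1 and 2 held linear intensities, ranked probe sets differently, and are given as ranks within the array. The genes were chosen on their log2 levels over the 3 stages in these 10 arrays, so those levels and differences are a description. Calls from the fit over all probe sets are also given for them, and these too only describe the members.

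Class III POU factors bind octamer DNA through a POU-specific domain and a POU homeodomain, and their genes carry the whole coding sequence in a single exon. They are expressed in the neuroepithelium, where they share enhancers with Sox2, for example at the nestin gene. Pou3f2 (Brn2) and Pou3f3 (Brn1) act together in cortical neurogenesis and neuronal migration, Pou3f4 (Brn4) is needed in the inner ear, and Pou3f1 (Oct6) is known from the neural plate and from myelinating Schwann cells.

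Promoter sequence was at hand for 3 of the 5 members, Pou3f2, Pou3f3 and Pou3f4, and is shown as a description. None was at hand for Pou3f1, the member that stayed level, or for Pantr1. Each line is the 250 bases before the annotated start, 5′ to 3′ on the gene's strand, from the RefSeq promoter table of build GRCm38.p6, with CCAAT boxes (CCAAT, or ATTGG on the other strand) in capitals.
Pou3f3, chr1:42695518-42695767, plus strand: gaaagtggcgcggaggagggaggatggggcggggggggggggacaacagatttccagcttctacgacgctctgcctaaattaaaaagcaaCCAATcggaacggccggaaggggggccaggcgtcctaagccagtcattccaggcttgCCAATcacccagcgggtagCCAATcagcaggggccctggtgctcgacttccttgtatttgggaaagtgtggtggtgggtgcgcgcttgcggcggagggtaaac
Pou3f2, chr4:22488367-22488616, minus strand: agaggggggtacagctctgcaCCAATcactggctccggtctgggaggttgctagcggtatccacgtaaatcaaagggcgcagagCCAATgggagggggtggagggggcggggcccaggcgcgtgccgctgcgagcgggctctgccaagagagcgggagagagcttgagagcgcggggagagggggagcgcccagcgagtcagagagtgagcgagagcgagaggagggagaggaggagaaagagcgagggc
Pou3f4, chrX:110814129-110814378, plus strand: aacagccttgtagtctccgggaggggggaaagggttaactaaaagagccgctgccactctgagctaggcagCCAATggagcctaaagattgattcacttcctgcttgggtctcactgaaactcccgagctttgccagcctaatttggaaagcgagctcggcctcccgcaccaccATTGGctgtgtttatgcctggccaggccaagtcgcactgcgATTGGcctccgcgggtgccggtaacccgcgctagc

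The Pou3f3 and Pou3f4 windows held 3 CCAAT boxes each and the Pou3f2 window held 2. Over 32851 promoter windows of the same length, 33.8% held at least 1 CCAAT box, 10.1% at least 2 and 2.79% at least 3. No window of these genes held the octamer ATGCAAAT (reverse ATTTGCAT; 1.6% of all windows), the TATA box TATAAA (reverse TTTATA; 12.4%) or the letters ACAAAG, counted here as a Sox core (reverse CTTTGT; 16.5%). Other forms of these motifs were not searched. The windows were rich in G and C, at 66.8% in Pou3f2, 60.8% in Pou3f3 and 58.0% in Pou3f4. The motifs were chosen after the sequences were seen, so the shares over all windows test nothing about these genes. A match is a match of letters, and no factor's binding was measured here.

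Pou3f3 had the largest difference of the 5 genes over the day in the log2 arrays. Its brightest probe set, 1435197_at, read log2 levels of 2.75 and 2.68 in the GD8.5 arrays. At GD9.0 it read 5.21, 5.08, 5.23 and 5.22, and at GD9.5 it read 7.18, 7.02, 6.97 and 7.16. No stage overlapped with another, and within a stage the arrays lay close together. The difference was 2.47 ± 0.08 (log2, SE; 5.53-fold) for GD9.0 against GD8.5 and 1.90 ± 0.07 (3.73-fold) for GD9.5 against GD9.0, or 20.7-fold over the day. By size of rise it stood at rank 3 of 18193 genes in the first interval and at rank 19 in the second. The other Pou3f3 probe set, 1422331_at, averaged 1.04 ± 0.20 (SD, n = 2), 1.20 ± 0.09 (n = 4) and 1.48 ± 0.30 (n = 4) at the 3 stages in order of age. It lay at or near the background level of 1.42, under which 95% of 39 olfactory receptor genes lay, so it holds little signal for any stage.

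Pantr1 was higher at each later stage too, but with the larger step in the second interval. Its 1 probe set, 1435678_at, read 3.59 and 3.84 at GD8.5. At GD9.0 the arrays read 5.23, 5.16, 5.31 and 5.31, and at GD9.5 they read 7.48, 7.54, 7.50 and 7.52. The stages did not overlap, and the SD among the 4 GD9.5 arrays was 0.03. The differences were 1.53 ± 0.08 (log2, SE; 2.90-fold) for GD9.0 against GD8.5 and 2.26 ± 0.07 (4.79-fold) for GD9.5 against GD9.0, or 13.9-fold over the day, with rank 31 and rank 10 among all genes. The difference of the second interval minus the first was 0.73 for Pantr1 and -0.57 for Pou3f3. This contrast in the first interval was seen without the linear GD8.5 arrays. With all 12 arrays brought to 1 distribution, GD9.0 stood above GD8.5 by 2.07 for Pantr1 and 2.02 for Pou3f3. Only GD8.5 has linear arrays, so array and scale cannot be told apart in that setting.

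Pou3f4, the X-linked member, was higher at each later stage in the log2 arrays, by about the same amount in each interval. Probe set 1422164_at read 2.95 and 2.49 at GD8.5, then 3.98, 4.14, 4.15 and 4.33 at GD9.0, and 5.79, 5.45, 5.70 and 5.57 at GD9.5. The differences were 1.43 ± 0.14 (log2, SE; 2.70-fold) for GD9.0 against GD8.5 and 1.48 ± 0.11 (2.78-fold) for GD9.5 against GD9.0, and the full day gave 7.51-fold. With all 12 arrays the differences were 2.02 and 1.40, so the likeness of the intervals holds only without the linear GD8.5 arrays. Only GD8.5 has linear arrays, so a change with all 12 cannot be told apart from a difference of scale. The SD of the 2 GD8.5 arrays was 0.33, and no stage overlapped. A second probe set, 1422165_at, had means of 1.88 ± 0.14 (SD, n = 2), 3.23 ± 0.23 (n = 4) and 4.44 ± 0.12 (n = 4) in order of age, with differences of 1.34 ± 0.13 (SE) and 1.21 ± 0.11. Both probe sets therefore gave the same order of stages.

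Pou3f2 had smaller differences, and its 3 probe sets were less uniform. The brightest, 1450831_at, read 3.14 and 3.58 at GD8.5. It read 4.30, 4.16, 3.80 and 3.67 at GD9.0 and 4.38, 4.61, 4.31 and 4.25 at GD9.5. The GD9.5 and GD9.0 arrays overlapped, with a difference of 0.40 ± 0.14 (log2, SE), while the GD9.0 and GD8.5 arrays did not, with a difference of 0.62 ± 0.18 (1.54-fold). Probe set 1453478_at averaged 1.51 ± 0.11 (SD, n = 2), 2.03 ± 0.13 (n = 4) and 2.91 ± 0.04 (n = 4) in order of age, and its larger difference was that of GD9.5 against GD9.0, at 0.87 ± 0.07 (SE). Probe set 1457734_at averaged 1.50 ± 0.09, 2.00 ± 0.16 and 2.46 ± 0.22, with differences of 0.49 ± 0.13 and 0.47 ± 0.11. Over the day the 3 probe sets gave 2.04-fold, 2.64-fold and 1.94-fold.

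Pou3f1 stood apart from the other members in having nearly the same level throughout. Probe set 1460038_at read 5.22 and 5.12 at GD8.5, then 5.12, 5.02, 5.28 and 5.17 at GD9.0, and 5.22, 5.27, 5.16 and 5.12 at GD9.5. All 3 stages overlapped, and the differences were -0.02 ± 0.08 (log2, SE) for GD9.0 against GD8.5 and 0.05 ± 0.07 for GD9.5 against GD9.0. The dimmer probe set 1422068_at averaged 2.47 ± 0.01 (SD, n = 2), 2.33 ± 0.02 (n = 4) and 2.37 ± 0.08 (n = 4) in order of age, and its GD9.0 arrays all lay below the GD8.5 arrays, by 0.14 ± 0.07 (SE). With all 12 arrays its GD9.0 mean was above that of GD8.5, by 0.19, so this direction depends on whether the linear GD8.5 arrays are used.

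**Figure D1:**
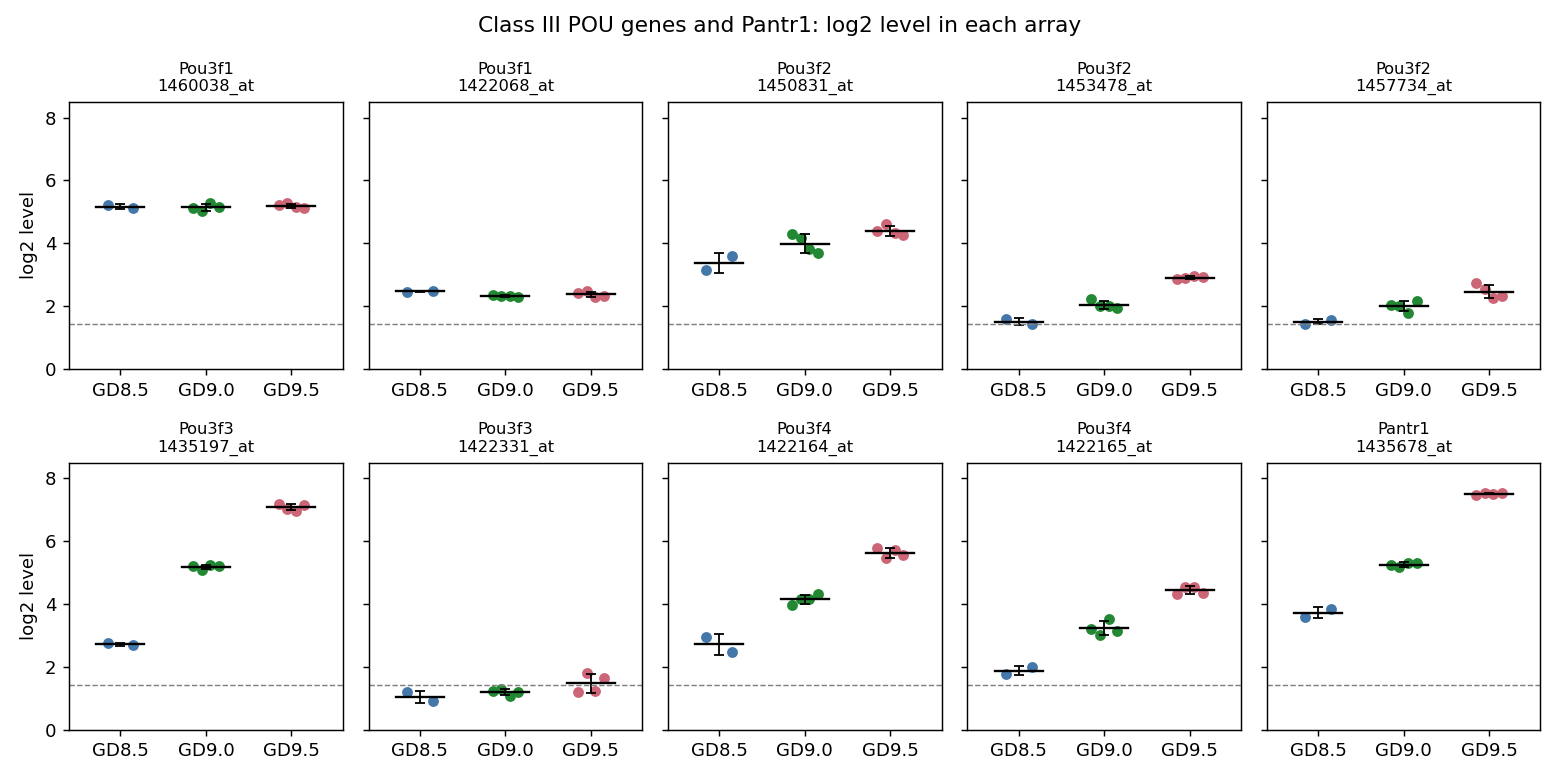
Log2 level (vertical axis) of the 10 probe sets of the 5 genes at GD8.5, GD9.0 and GD9.5 (horizontal axis); points are arrays, black lines and bars the mean ± SD (n = 2, 4 and 4), and the dashed line is the background level of 1.42. Pou3f3 probe set 1435197_at, Pantr1, both Pou3f4 probe sets and Pou3f2 probe sets 1453478_at and 1457734_at are higher at each later stage without overlap. Pou3f1 stays level near 5.2 and 2.4, and Pou3f3 probe set 1422331_at lies near the background.

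Counted over probe sets, limma with Benjamini-Hochberg adjustment called 6 of 10 higher and 0 lower at GD9.0 against GD8.5, where 4.28% of all probe sets were called higher and 3.68% lower, 7.96% in all. It also called 6 of 10 higher and 0 lower at GD9.5 against GD9.0, where 8.93% were called higher and 8.1% lower. Since the genes were picked for their stage pattern, these counts only describe them. The 4 probe sets not called were the same in both intervals: both of Pou3f1, the dim one of Pou3f3 and the brightest of Pou3f2. In the fit with 1 probe set per gene, the first difference of Pou3f2 was called, so this gene lies at the threshold.

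**Figure D2:**
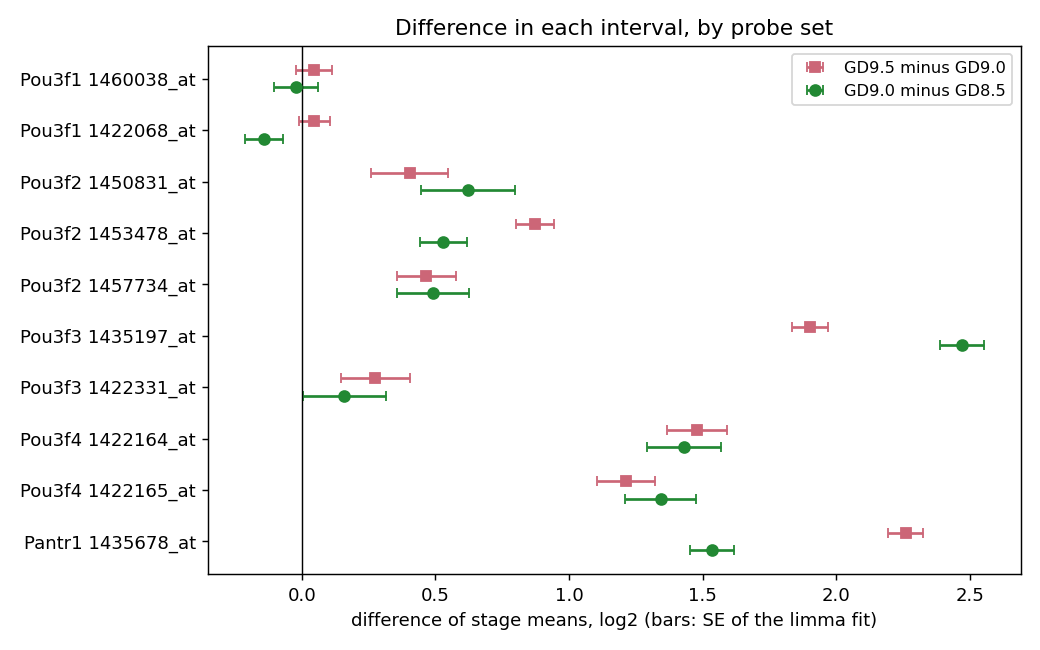
Difference of stage means (horizontal axis, log2, bars are the SE of the limma fit) for each of the 10 probe sets (vertical axis), with squares for GD9.5 minus GD9.0 and circles for GD9.0 minus GD8.5. Pantr1 has its larger difference in the second interval (2.26 against 1.53), Pou3f3 probe set 1435197_at in the first (1.90 against 2.47), and Pou3f4 has about the same in both.

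GD8.5 replicates 1 and 2 were in neither the rule for the genes nor the fit, and their values bear on the GD8.5 level only through ranks. Pou3f3 probe set 1435197_at had linear intensities of 280 and 263 in these arrays, which placed it at the 70.2 and 69.2 percentiles of the array, while the GD9.0 arrays placed it between 81.1 and 81.9. Pantr1 lay at the 58.9 and 63.5 percentiles, against 81.8 to 82.5 at GD9.0. Pou3f4 probe set 1422164_at lay at 45.6 and 35.0, against 73.4 to 75.9 at GD9.0. The log2 GD8.5 arrays placed Pou3f3 at 63.3 to 64.1, Pantr1 at 70.7 to 72.7 and Pou3f4 at 61.2 to 65.8. The 2 kinds of GD8.5 array thus differed for each of these genes, and among them most for Pou3f4. Pou3f1 probe set 1460038_at lay at 82.9 and 80.5, and its GD9.0 arrays, at 80.7 to 82.0, lay between these. For Pou3f3, Pantr1 and Pou3f4 the GD9.0 arrays thus lay above both kinds of GD8.5 array, and for Pou3f1 they did not.

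Pou3f2 probe set 1450831_at was the member on which the 2 kinds of GD8.5 array disagreed most. It lay at the 31.7 and 24.4 percentiles in the linear arrays and at 67.4 and 70.9 in the log2 arrays of the same stage, below the 71.3 to 75.7 of GD9.0 in either case. In all, 8 of 10 probe sets, from all 5 genes, lay below all 4 GD9.0 arrays in both linear arrays, as 23.6% of all probe sets did. They include Pou3f1 probe set 1422068_at, at 52.9 and 47.1 against 59.0 to 59.6 at GD9.0, which in the log2 GD8.5 arrays lay above GD9.0, at 60.9 and 61.1. An exact permutation test of 2 against 4 arrays cannot go below p = 0.133 (two-sided), so none was run.

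**Figure D3:**
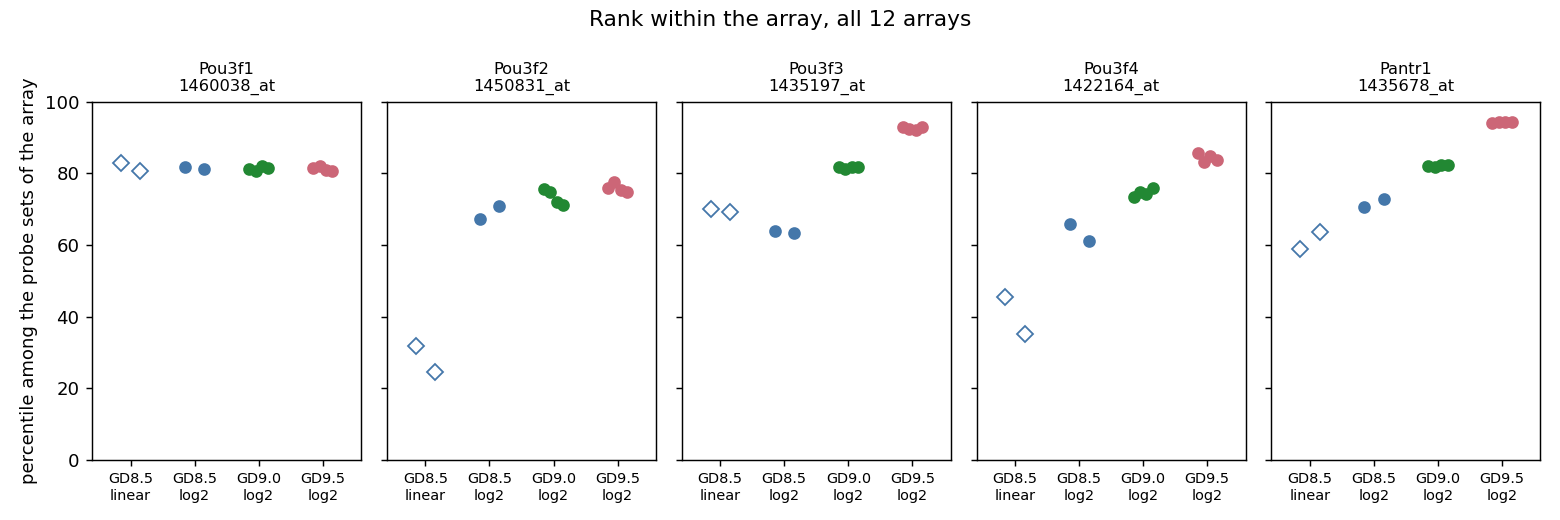
Percentile of the brightest probe set of each gene among all probe sets of its array (vertical axis), by stage and scale (horizontal axis); open diamonds are the 2 linear GD8.5 arrays and filled points the 10 log2 arrays. Pou3f3 lies near 70 in the linear GD8.5 arrays and above 81 in every GD9.0 array, Pou3f1 stays between 80.5 and 82.9 in all 12, and Pou3f2 differs between the 2 kinds of GD8.5 array.

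Markers of other tissues differed between stages along with these genes. For scale, 6.78% of all genes rose and 6.74% fell in the first interval, and 14.1% rose and 10.3% fell in the second. Heart markers fell in 14 of 15 cases in each interval (limma with Benjamini-Hochberg adjustment), and their mean log2 level was 5.36 (arrays 5.31 to 5.42) at GD8.5, 2.82 (2.80 to 2.86) at GD9.0 and 1.46 (1.38 to 1.51) at GD9.5, when 7 of 15 were still above background. Endoderm and yolk sac markers fell in 13 of 13 and 11 of 13 cases, and their mean lay between 6.14 and 6.18 in the GD8.5 arrays, 3.36 and 3.42 at GD9.0 and 1.75 and 1.79 at GD9.5, when 10 of 13 were above background. Surface ectoderm markers fell in 9 and 10 of 13 cases. In the first interval 1 of them rose, Trp63, by 0.90 ± 0.09 (log2, SE; 1 of 4 probe sets called), and 0 rose in the second. Erythroid markers rose in 7 and 8 of 11 cases, with array means of 4.00 to 4.11, 4.86 to 4.94 and 5.49 to 5.60 in order of age. Of 14 mesenchyme and somite markers 3 rose and 6 fell, then 3 rose and 3 fell, and of 10 endothelial markers 2 rose and 2 fell, then 1 rose and 4 fell. The 18S control probe sets averaged 9.82, 8.81 and 10.3 and the actin controls were higher at the 3' end than at the 5' end by 0.71, 0.56 and 0.93 (log2) at the 3 stages in order of age. The part of other tissues and RNA quality in the differences above was not tested, and more cells of a type cannot be told apart from more RNA per cell.

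Other POU genes did not share the pattern as a group. Of 7 measured, 1 fell and 0 rose at GD9.0 against GD8.5 (14.3% called, where 13.5% of all genes were), and 2 rose and 0 fell at GD9.5 against GD9.0 (28.6%, against 24.3% of all genes). Pou5f1 (Oct4), the pluripotency factor, fell at least 1.47-fold in the first interval, with a GD9.0 level under the background and a GD8.5 level of 1.98 (adjusted p = 0.00762, limma). Its call was lost without GD8.5 replicate 3, and without GD9.0 replicate 3 the list held 1 fall in the second interval. Pou4f1 (Brn3a), a factor of sensory neurons, averaged 3.34 ± 0.17 at GD9.5 and 2.07 ± 0.15 at GD9.0 (SD, n = 4 each; log2 difference 1.27 ± 0.09 SE, adjusted p = 3.21e-06, limma). Pou6f1 rose by 0.28 ± 0.06 in the same interval (1 of 2 probe sets called). With the mean of all probe sets of a gene, the list held 1 rise in that interval. The median log2 differences of the list were -0.06 and 0.04, against -0.002 and -0.008 over all genes.

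SoxB and SoxC factors and other neural plate factors, the proteins with which class III POU factors share enhancers, were called in both directions. Of 13 measured, 4 rose and 1 fell at GD9.0 against GD8.5 (38.5% called, where 13.5% of all genes were), and 7 rose and 4 fell at GD9.5 against GD9.0 (84.6%, against 24.3% of all genes). With all 12 arrays the rises in the first interval were 2 and the falls in the second 2, and without GD9.0 replicate 4 the falls in the second were also 2. Zic1, a dorsal neural tube transcription factor, rose by 2.40 ± 0.06 (log2, SE) and then by 0.91 ± 0.05, and Otx2, of forebrain and midbrain, rose by 0.52 ± 0.07 and then fell by 0.25 ± 0.06. Sox3, a partner at neural enhancers, averaged 6.43 at GD9.5 and 5.75 at GD9.0 (difference 0.68 ± 0.06, 1 of 2 probe sets called), and Six3, of the anterior neural plate, fell by 0.38 ± 0.08 and 0.40 ± 0.07 (1 of 3 probe sets called). The first of these calls was lost without GD8.5 replicate 4 and with the mean of all probe sets. Sox2 itself rose slightly in the second interval, with means of 9.02 at GD9.5 and 8.68 at GD9.0 and a difference of 0.35 ± 0.06 (adjusted p = 0.00234, limma), and 0.16 ± 0.08 in the interval before, which was not called. The medians of the list were 0.13 and 0.35.

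Genes described elsewhere as bound or controlled by class III POU factors were called in both directions. Of 17 measured, 9 rose and 2 fell at GD9.0 against GD8.5, and 8 rose and 4 fell at GD9.5 against GD9.0, where 6.78% of all genes rose and 6.74% fell in the first interval and 14.1% rose and 10.3% fell in the second. With all 12 arrays the first-interval rises were 5 and the second-interval falls 2. The first-interval falls were 1 without either GD8.5 array, GD9.0 replicate 3 or any 1 GD9.5 array, and the second-interval falls were 2 without GD9.0 replicate 4. With median centring or the mean of all probe sets, the first-interval falls were also 1. The medians were 0.34 and 0.23. Zic1, Otx2, Sox2 and others of this list are also in the Sox and neural plate list. Nes, Fabp7 and Tubb3 are also in the neural progenitor or early neuron list, so the lists are not separate results. Fabp7, a lipid-binding protein of radial glia whose gene Pou3f2 and Pou3f3 bind, averaged 8.44 at GD9.5, 6.76 at GD9.0 and 4.83 at GD8.5 and rose in both intervals (1.68 ± 0.05 and 1.93 ± 0.06 SE). Nes, which encodes the intermediate filament nestin, rose by 0.46 ± 0.07 in the first interval and 1.22 ± 0.06 in the second, and Dll1, a Notch ligand, by 0.51 ± 0.08 and 0.66 ± 0.06.

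Other genes of this list differed in direction. Cdk5r1, the p35 activator of the kinase Cdk5, had a difference of -0.06 ± 0.15 in the first interval and rose in the second (0.84 ± 0.12), and Dab1, the Reelin adaptor, was not called in either (0.05 ± 0.15 and -0.08 ± 0.12). Egr2, a target of Pou3f1 in Schwann cells that also marks hindbrain segments, fell 4.94-fold and then at least 1.39-fold, to a GD9.5 level of 0.98 under the background. Tubb3, the neuronal beta-tubulin, rose by 0.57 ± 0.10 and 1.62 ± 0.08. Reln fell by 0.61 ± 0.18 in the first interval (adjusted p = 0.0453, limma), but 0 of its 2 probe sets were called in the fit over probe sets. Nes, Dll1, Cdk5r1, Dab1, Foxp2 and Sox2 were named after their values were seen.

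**Figure D4:**
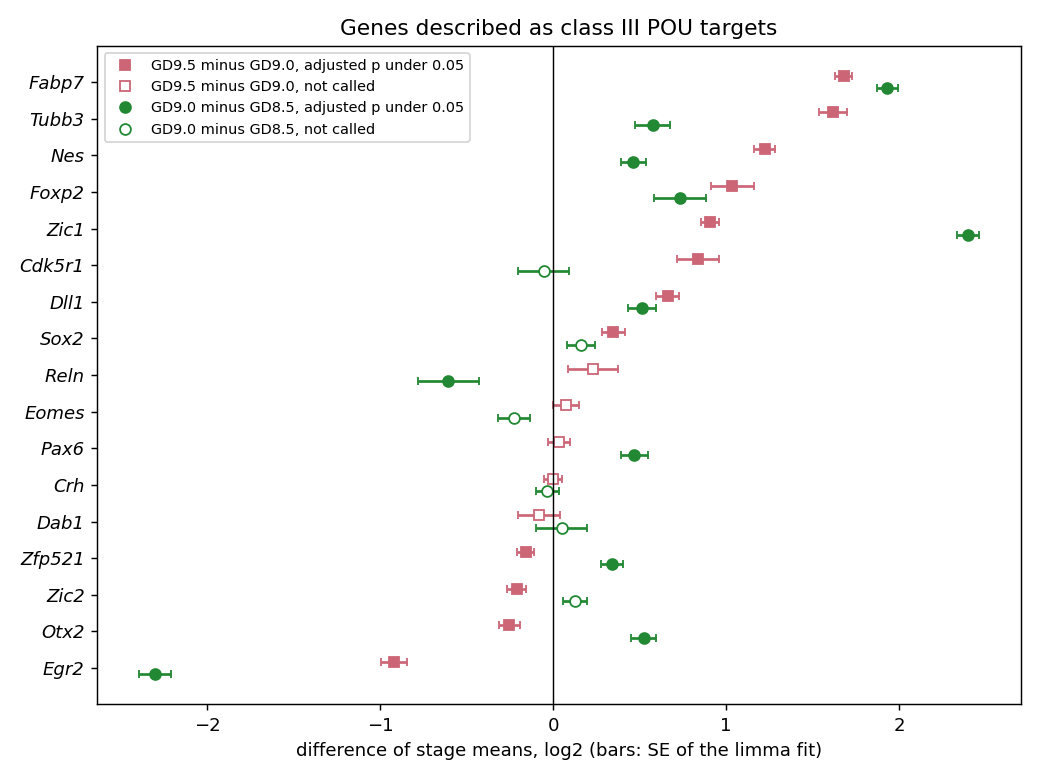
Difference of stage means (horizontal axis, log2, bars are the SE) for the 17 measured genes described as class III POU targets (vertical axis), with squares for GD9.5 minus GD9.0 and circles for GD9.0 minus GD8.5; open symbols were not called. Fabp7, Zic1, Nes, Dll1, Tubb3 and Foxp2 were called higher in both intervals, and Egr2 was called lower in both.

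Neural progenitor and early neuron genes were mostly called higher, where 6.78% of all genes rose in the first interval and 14.1% in the second. Falls made up 6.74% and 10.3% of all genes. Of 25 neural progenitor genes 17 rose and 1 fell in the first interval (72% called), then 20 rose and 1 fell (84%), with medians of 0.46 and 0.76. Beside Fabp7, large rises were those of the membrane glycoprotein genes Gpm6b in the first interval (1.56 ± 0.13 SE, 1 of 3 probe sets called) and Gpm6a in the second (1.85 ± 0.15), and of Id4, which blocks proneural factors, in the second (2.97 ± 0.08). Sox9 fell by 0.71 ± 0.12 in the first interval (1 of 3 probe sets called) and Hes1, a Notch target, by 0.35 ± 0.06 in the second. In the second interval Sox9 rose by 0.48 ± 0.10. With an intensity trend in the spread, the list held 2 falls in that interval. Of 30 early neuron genes 16 rose and 2 fell, then 24 rose and 0 fell, with medians of 0.39 and 1.16, and without GD8.5 replicate 3 the first-interval falls were 1. Neurod1, a proneural transcription factor, rose at least 6.10-fold in the first interval, and Nhlh2 and the neurofilament gene Nefm rose 9.96-fold and 6.38-fold in the second. Isl1, a factor of motor and sensory neurons and of heart progenitors, fell by 1.15 ± 0.07 and Stmn2, a neuronal tubulin-binding protein, by 0.36 ± 0.08 in the first interval. Both rose in the second, Isl1 by 0.94 ± 0.06 and Stmn2 by 1.49 ± 0.06.

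Long noncoding RNAs were called in both directions. Of 16 measured transcripts, some of which neighbour neural factor genes as Pantr1 does, 2 rose and 3 fell at GD9.0 against GD8.5 (31.2% called, where 13.5% of all genes were), and 3 rose and 1 fell at GD9.5 against GD9.0 (25%, against 24.3% of all genes). The counts hold 1 fall and 1 rise of Pax6os1, named for this after its values were seen, which was under the background at every stage. The falls were 1 without GD8.5 replicate 3 and with the replicate block, and the rises in the second interval were 1 without GD9.0 replicate 2 or 3 or GD9.5 replicate 1, 2 or 4. Miat rose by 1.40 ± 0.07 (log2, SE) and 0.73 ± 0.06 (1 of 2 probe sets called), and Rmst, a neural transcript, by 0.92 ± 0.13 in the first interval (1 of 2 probe sets). Hoxb5os, from the Hoxb cluster, fell 13.7-fold in the first interval. Sox2ot, which overlaps the Sox2 gene, was called higher in the second (0.28 ± 0.09), and its probe set was not called in the fit over probe sets. Gas5, a host of small nucleolar RNAs, fell by 0.51 ± 0.05, and Evx1os fell in the first interval close to the background.

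The otic and periotic list, chosen because Pou3f4 acts in the inner ear, held more falls than rises. Of 13 measured genes, 1 rose and 4 fell in each interval, with medians of -0.15 and -0.08. Among all genes 6.78% rose and 6.74% fell in the first interval, and 14.1% rose and 10.3% fell in the second. Without GD8.5 replicate 4 the first-interval falls were 2, and without GD9.5 replicate 3 the second-interval rises were 2. With the mean of all probe sets the rises were 2 in each interval, and with an intensity trend in the spread they were 2 in the second. Otx1 rose by 0.52 ± 0.08 (log2, SE) and 0.44 ± 0.06. Gbx2, also of the anterior hindbrain, fell by 1.73 ± 0.12 in the first interval, Tbx1 fell 1.51-fold and then at least 1.45-fold, and Sox10, of neural crest and otic cells, fell by 0.88 ± 0.09 in the second (1 of 3 probe sets called).

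Among all 18192 other genes, Neurod1 had the profile closest to that of Pou3f3, with a root-mean-square difference of 0.20 between centred log2 levels over the 10 arrays. Fabp7 and Cnpy1 followed at 0.29 each, Pantr1 at 0.36, Ptx3 at 0.38 and Elavl4, a neuronal RNA-binding protein gene, at 0.39. The GD8.5 means of Neurod1 and Cnpy1, 1.40 and 1.35, lay under the background of 1.42, so the size of their first-interval steps is uncertain. Closest to Pantr1 were Rufy3 at 0.21, Insm1, a zinc finger factor of neuronal progenitors, at 0.24, and Cnpy1 at 0.28, with Pou3f3 at rank 12. Closest to Pou3f2 probe set 1450831_at were Ermap at 0.15, Tfcp2 at 0.16 and St7 at 0.16. These values describe likeness over arrays that differ in stage, and a profile with small differences has close neighbours more easily.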

How the data were processed

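RNA from dissected neural tubes was hybridised to Affymetrix mouse arrays. The authors deposited log2 values for 10 arrays and linear intensity values for GD8.5 replicates 1 and 2; Expression Console 1.2.1 is among the tools of the submitters' processing notes, as are GCRMA and RMA, none with a stated role. The sorted values of the 10 log2 arrays differed by at most 0.27, so they shared nearly 1 distribution. The tests used these 10 arrays, without the linear ones.

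Of 45101 probe sets, 64 controls were left out. Platform annotation, with symbols updated through a GRCm38.p6 gene table, gave 34945 probe sets with 1 gene, 932 with several and 9160 with none. Each of 18193 genes was represented by its brightest probe set. Members were fitted as probe sets, over 45037. limma 3.58.1 in R 4.3.3 gave a mean per stage, with 7 residual degrees of freedom. P-values of its moderated test were adjusted over the whole table (Benjamini-Hochberg), and an adjusted p under 0.05 was a call. Errors beside differences are standard errors of this fit. The fit was tested on simulated data. The background level was the 95th percentile of 39 olfactory receptor genes. No detection calls were used.

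The members, the gene lists, the background and the choice of 10 arrays were made with earlier results of these data known. The rule for names took all probe sets of the members, up to 2 largest rises and falls per list, and genes with the smallest root-mean-square difference from a member. The few genes named outside it are marked in the text. Promoter motifs were chosen after the sequences were seen. Alternatives covered scaling, probe set choice, a filter on dim genes, the spread model, a replicate block, all 12 arrays and each array left out.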

Additional observations from a re-analysis of the deposited data

Results flagged for a closer look

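Pou3f3 probe set 1435197_at read 5.08 in GD9.0 replicate 2, below the other GD9.0 arrays at 5.21 to 5.23, with a Dixon ratio of 0.831, just above the critical value. It was the only such array among 32 groups of 4 checked (the member probe sets and the marker lists), where chance picks out about 1 in 20. A probe set annotated with Pou3f3 and 1 other gene was left out of the comparisons. It averaged 3.93 ± 0.30 at GD9.5 and 1.65 ± 0.37 at GD9.0 (SD, n = 4 each) and 1.55 ± 0.15 at GD8.5 (n = 2). Only the GD9.5 level lay well above the background level of 1.42. The GD9.0 and GD8.5 means lay close to it, and GD9.0 replicates 1 and 3 read 1.27 and 1.41, under it.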

How the results depend on the processing

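The GD8.5 level rests on 2 arrays. With GD8.5 replicate 3 left out, 1526 genes were called for GD9.0 against GD8.5, and with replicate 4 left out 1387, against 2460 with both; the range over all 10 arrays was 1387 to 2391, and 3761 to 4274 for GD9.5 against GD9.0. Leaving out 1 array gave first differences between 2.43 and 2.50 for Pou3f3, 1.41 and 1.66 for Pantr1, 1.20 and 1.67 for Pou3f4, 0.40 and 0.84 for Pou3f2 and -0.07 and 0.03 for Pou3f1. With all 12 arrays the first differences were 2.02 for Pou3f3, 2.07 for Pantr1, 2.02 for Pou3f4 and 1.72 for Pou3f2, the last of which was not called. In that setting 2295 genes were called for GD9.5 against GD9.0, where the 10 arrays gave 4429. Both linear arrays are at GD8.5, so first differences with all 12 arrays hold stage and scale together. The mean over all probe sets of a gene gave 1.31 and 1.09 for Pou3f3, since it takes in the dim probe set. No called difference of a member changed sign. Differences of Pou3f1, none of them called, did: with 12 arrays 1422068_at gave 0.19 in the first interval, where the 10 arrays gave -0.14, and 1460038_at lay near 0 on either side. Only calls for Pou3f2 probe sets changed among the members, whose calls are a description. The first difference of 1457734_at was not called without GD8.5 replicate 3 (0.43) or 4 (0.55), GD9.0 replicate 1 (0.48), 2 (0.49) or 4 (0.43), or GD9.5 replicate 2 or 4 (0.49 each), and that of 1453478_at not without GD8.5 replicate 4 (0.45). Probe set 1450831_at was called in the first interval without GD9.0 replicate 4 (0.73), with median centring (0.63), the mean of probe sets (0.55), the filter on dim genes and the intensity trend (0.62 each), and in the second without GD9.0 replicate 1 (0.51), with the mean of probe sets (0.58) and the intensity trend (0.40). Of 504 list counts under the alternatives, 37 moved by over 1.5 times, among them the second-interval rises of long noncoding RNAs, 1 with the intensity trend and 3 without it. The cause was not tested.

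Between arrays of equal replicate number at neighbouring stages, the correlations of deviations from the stage mean lay between -0.02 and 0.10. Arrays of unequal number were not compared, so these values cannot decide whether equal numbers mark pairs. With the replicate block 1899 and 4176 genes were called, Pou3f2 probe set 1457734_at was no longer called in the first interval (0.40), and 1450831_at was called in the second (0.40).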
